A study of Homo sapiens with 12 samples.

Results

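The aminoacyl-tRNA synthetases, with the scaffold proteins of the multi-synthetase complex, were followed in A549 cells, an established human lung adenocarcinoma line. They were taken by gene symbol: names of 1 letter followed by ARS1 or ARS2, plus EPRS1, FARSA, FARSB, TARS3, AIMP1, AIMP2 and EEF1E1. This gave 42 of the 20323 rows of the count table and 41 symbols. SARS2 stood at 2 identifiers, and the second of them (ENSG00000269547) had no count in any library. The other 41 rows passed the low-count filter that left 12718 genes for testing. They comprised 21 cytosolic synthetases, 17 mitochondrial synthetases and 3 scaffolds. Names ending in 2 mark the mitochondrial enzymes, while KARS1 and GARS1 serve both compartments from 1 gene and were placed with the cytosolic enzymes.

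RNA was sequenced from 4 groups of A549 cells with 3 libraries each: LKB1-deficient cells given high-dose AA, LKB1-deficient cells given PBS, LKB1-intact cells given AA and LKB1-intact cells given PBS. The sample titles name the AA treatment VitC, that is vitamin C or ascorbate, and PBS is phosphate-buffered saline. The cells called intact carry the genotype label WT, and the titles of the deficient libraries read con. LKB1 is the kinase encoded by STK11, and A549 is widely described as lacking a functional copy. How either kind of cell was made, whether it is a single clone, and the dose and exposure are not in the labels. The study asks, by its title, whether LKB1 loss exposes lung cancer cells to pyroptosis, a lytic cell death, under AA. The labels do not call the 3 libraries of a group separate cultures, so the p-values rest on library-to-library spread that may be technical only.

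Each synthetase joins 1 amino acid to its own transfer RNAs, the step that fixes the genetic code before the ribosome. Cytosol and mitochondria mostly use separate enzymes, all of them encoded in the nucleus, and the mitochondrial ones serve the ribosomes that make respiratory chain subunits. In animal cells several cytosolic enzymes sit in a multi-synthetase complex on the scaffolds AIMP1, AIMP2 and EEF1E1, while the others work outside it. When a tRNA stays uncharged, the kinase GCN2 (EIF2AK4) phosphorylates the initiation factor eIF2 and translation of the transcription factor ATF4 goes up. ATF4 is known to raise transcription of many cytosolic synthetase genes through the C/EBP-ATF response element.

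That element was searched as TGATGNAA on both strands of the RefSeq promoter windows, which run from 250 bases before to 50 bases after each annotated start on GRCh38.p14. Windows were found for 33 of the 41 symbols, and the motif stood in those of 8 genes (24.2%), against 4.46% of all 27305 genes with a window. By window the shares were 8 of 45 (17.8%) for the synthetases and scaffolds and 3.62% of 35116 for all. Of the free cytosolic enzymes 5 of 10 held it, of the complex enzymes 2 of 6, of the mitochondrial enzymes 1 of 14 and of the scaffolds 0 of 3. The 8 stretches of 30 bases are printed because they let the AA responses below be read beside the element. They run 5′ to 3′ on the gene's strand with the motif, or its reverse complement, in capitals.
CARS1 (chr11:3057407-3057436, minus strand): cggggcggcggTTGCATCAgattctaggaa
AARS1 (chr16:70289675-70289704, minus strand): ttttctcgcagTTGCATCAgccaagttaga
GARS1 (chr7:30594834-30594863, plus strand): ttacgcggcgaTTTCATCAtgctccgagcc
TARS1 (chr5:33440956-33440985, plus strand): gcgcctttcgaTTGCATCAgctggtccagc
NARS1 (chr18:57621804-57621833, minus strand): tctacgctctcTGATGCAAcgccggaatcg
MARS1 (chr12:57488053-57488082, plus strand): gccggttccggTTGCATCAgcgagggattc
IARS1 (chr9:92293692-92293721, minus strand): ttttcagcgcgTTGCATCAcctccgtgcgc
YARS2 (chr12:32756076-32756105, minus strand): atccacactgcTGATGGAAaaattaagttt
In CARS1, MARS1 and TARS1 the first base of the motif lay within 4 bases of the annotated start, at positions -2, -4 and 2 relative to the first transcribed base as 0. It lay at -13 in IARS1, 14 in NARS1 and -33 in GARS1, and farther upstream, at -187 and -197, in AARS1 and YARS2. The core TTGCATCA was the same in CARS1, AARS1, TARS1, MARS1 and IARS1, with its reverse complement in NARS1, and GARS1 and YARS2 differed in the free position. A match in these letters is a description and not a bound site.

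Library totals of the estimated counts ran from 16055534 to 20306129, and levels are given as CPM, the count scaled to a common TMM-adjusted depth, with TMM factors of 0.987 to 1.03. The CPM values of the cell type markers below are the exception, scaled to the library total without the TMM factor. STK11 averaged 6.64 CPM in deficient cells under AA, 5.79 CPM in deficient cells under PBS, 26.0 CPM in intact cells under AA and 24.5 CPM in intact cells under PBS, the order the labels call for. Of the 6 epithelial and A549 markers, KRT8 (774 to 1989 CPM) and KRT18 (685 to 1424 CPM) were abundant, whereas KRT19 (at most 0.497 CPM), CDH1 (0.732 to 2.40 CPM), EPCAM (6.30 to 11.6 CPM) and ALDH1A1 (at most 0.0610 CPM) were low. The low ones do not bear out the name A549, which is taken from the sample titles. The summed level of the 6, nearly all of it KRT8 and KRT18, was 1822 to 1864 CPM in deficient cells under AA, 1903 to 2075 under PBS, 3307 to 3422 in intact cells under AA and 2145 to 2228 under PBS. The endothelial list summed to 0.739 to 1.73 CPM in deficient cells under AA, 6.53 to 9.11 under PBS, 3.19 to 4.24 in intact cells under AA and 9.07 to 10.6 under PBS, with KDR at 0. Nearly all of it was CDH5, which averaged 1.07, 7.61, 3.68 and 9.57 CPM in these groups, in that order. The leukocyte list, nearly all of it CD68, with CD3E at 0, summed to 106 to 115 CPM in deficient cells under AA, 82.5 to 89.7 under PBS, 106 to 109 in intact cells under AA and 84.7 to 92.7 under PBS, so that the AA libraries lay above the PBS libraries in both genotypes. The fibroblast list summed to 11.6 to 12.8 CPM in deficient cells under AA, 12.3 to 13.2 under PBS, 16.1 to 16.8 in intact cells under AA and 12.1 to 14.2 under PBS, with intact AA above the rest. The part of these shifts in the results was not tested.

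In LKB1-deficient cells AA raised most cytosolic synthetases, while the mitochondrial ones were split. At an edgeR adjusted p under 0.05, 24 of the 41 rose and 13 fell, against backgrounds of 37% of all tested genes up and 37.4% down. The median log2 change was 0.28 over the 41, and 0.013 over all genes tested. Of the 21 cytosolic enzymes 16 rose and 4 fell (median 0.53), and of the 17 mitochondrial enzymes 6 rose (35.3%) and 8 fell (47.1%; median -0.14), shares near those of all genes. Among the 13 cytosolic enzymes outside the complex 11 rose and 2 fell, with a median of 0.83. Among the 8 enzymes of the complex 5 rose and 2 fell, with a median of 0.37. As CPM is a share of each bulk library, fewer cells carrying a transcript and less of it per cell cannot be told apart.

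The 4 strongest rises were those of cysteinyl-, seryl-, alanyl- and glycyl-tRNA synthetase. CARS1 (ENSG00000110619; chromosome 11, 3000922 to 3057613, minus strand, GENCODE release 29 on GRCh38), which charges cysteine tRNA, had 328, 315 and 321 CPM in deficient cells under AA, against 85.9, 89.6 and 86.7 CPM in deficient cells under PBS. All AA libraries lay above all PBS libraries, a 3.67-fold rise (log2 change 1.88, SE 0.0357, edgeR adjusted p = 1.14e-20). In intact cells the same gene had 90.9, 96.2 and 92.7 CPM under AA and 92.1, 87.3 and 91.5 CPM under PBS, and these libraries overlapped (log2 change 0.047, SE 0.0379, edgeR adjusted p = 0.278).

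SARS1, the seryl enzyme (chromosome 1, 109213918 to 109238169, plus strand), had 546, 521 and 526 CPM under AA and 182, 197 and 186 CPM under PBS in deficient cells. In intact cells it had 197, 203 and 199 CPM under AA and 185, 180.3 and 182 CPM under PBS. Groups did not overlap in either genotype, and the AA change was 1.50 on the log2 scale in deficient cells (SE 0.0329, edgeR adjusted p = 9.75e-20) and 0.13 in intact cells (SE 0.0338, edgeR adjusted p = 0.00157). AARS1, which charges alanine tRNA (chromosome 16, 70252295 to 70289543, minus strand), had 694, 669.8 and 685 CPM under AA and 259, 260.4 and 258 CPM under PBS in deficient cells. Its libraries in intact cells, 268, 266 and 271 CPM under AA and 264, 271 and 272 CPM under PBS, overlapped and gave a log2 change of -0.0038 (SE 0.0274, edgeR adjusted p = 0.91).

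GARS1, the glycyl enzyme used in both compartments (chromosome 7, 30594681 to 30634033, plus strand), moved in opposite directions in the genotypes. It had 945, 919 and 946 CPM under AA and 385, 404 and 399.7 CPM under PBS in deficient cells, a 2.36-fold rise (log2 change 1.24, SE 0.0292, edgeR adjusted p = 2.4e-19). In intact cells it had 343, 360.1 and 339 CPM under AA and 397, 383 and 391 CPM under PBS, a fall with no overlap of the libraries (log2 change -0.17, SE 0.0296, edgeR adjusted p = 3.27e-05). YARS1, which charges tyrosine tRNA, did the same: 389.7, 374 and 374 CPM under AA and 189, 198 and 185 CPM under PBS in deficient cells (log2 change 0.99, SE 0.0358, edgeR adjusted p = 3.23e-16). In intact cells it had 171, 171 and 166 CPM under AA and 177, 191 and 192 CPM under PBS (log2 change -0.14, SE 0.0370, edgeR adjusted p = 0.00227), a call that upper quartile scaling ended (log2 change -0.076, edgeR adjusted p = 0.0698).

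The remaining free cytosolic enzymes ranged more widely. TARS1, the threonyl enzyme and the most abundant of the set per length, averaged 1923 ± 39.8 CPM under AA and 1001 ± 14.9 CPM under PBS in deficient cells (SD, n = 3 each; log2 change 0.94, SE 0.0232, edgeR adjusted p = 4.95e-19). WARS1 (tryptophan), NARS1 (asparagine) and FARSB (the beta subunit of the phenylalanine enzyme) rose by log2 changes of 0.83, 0.72 and 0.53. FARSA, the alpha subunit, rose by 0.28 and VARS1 (valine) by 0.24. The 2 that fell were HARS1 (histidine, -0.17) and TARS3, a second cytosolic threonyl enzyme. TARS3 had 9.88, 10.1 and 8.60 CPM under AA and 17.2, 18.3 and 17.5 CPM under PBS in deficient cells, with no overlap (log2 change -0.89, SE 0.0919, edgeR adjusted p = 1.45e-08). The main threonyl gene therefore rose and its minor relative fell in the same libraries.

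Within the multi-synthetase complex the responses were uneven. MARS1, which charges both initiator and elongator methionine tRNA (chromosome 12, 57475445 to 57517569, plus strand), had 286, 276 and 295 CPM under AA and 117, 132 and 117 CPM under PBS in deficient cells (log2 change 1.23, SE 0.0437, edgeR adjusted p = 2.57e-16). All AA libraries were above all PBS libraries. Its exons overlap those of the stress-response gene DDIT3 on the opposite strand over 5.05% of their bases and those of ARHGAP9, likewise on the opposite strand, over 7.38%, and whether counting used strand is not given in the sources used here. DDIT3 had 31.0, 32.1 and 32.7 CPM under AA and 8.27, 9.54 and 9.47 CPM under PBS in these cells. ARHGAP9, under the low-count filter, had 0.575, 0.164 and 0.262 CPM under AA and 0 in all PBS libraries of these cells. Their part in the MARS1 count was not tested.

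EPRS1, which carries both the glutamyl and the prolyl activity, had 953, 934 and 950.3 CPM under AA and 665, 689.8 and 704 CPM under PBS in deficient cells (log2 change 0.46, SE 0.0262, edgeR adjusted p = 6.68e-13). In intact cells it had 721, 754 and 737 CPM under AA and 669, 663 and 664 CPM under PBS (log2 change 0.15, SE 0.0263, edgeR adjusted p = 3.83e-05), again without overlap. LARS1 (leucine) and IARS1 (isoleucine) rose by log2 changes of 0.41 and 0.33 in deficient cells. QARS1 (glutamine), described below, and RARS1 (arginine) were the 2 that fell, RARS1 by 0.22 on the log2 scale. KARS1, the lysyl enzyme of both compartments, had 304, 295 and 306 CPM under AA and 285, 305 and 278 CPM under PBS in deficient cells, with overlap, and 296, 297 and 297 CPM under AA and 285, 280.3 and 282 CPM under PBS in intact cells. It passed the test in neither genotype (log2 change 0.059, SE 0.0321, edgeR adjusted p = 0.1 in deficient and 0.071, SE 0.0321, edgeR adjusted p = 0.0557 in intact cells).

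Of the scaffolds, AIMP2 averaged 114 ± 5.43 CPM under AA and 67.4 ± 2.02 CPM under PBS in deficient cells (SD, n = 3 each; log2 change 0.75, SE 0.0439, edgeR adjusted p = 1.08e-12). Over 28.9% of its exon bases it overlaps EIF2AK1 on the opposite strand, so its count is uncertain. EEF1E1 rose by 0.23 on the log2 scale and shares 18.7% of its exon bases with the readthrough gene EEF1E1-BLOC1S5. Its sign turns to -0.20 once a trend on transcript length is removed, as described below. AIMP1 averaged 88.1 ± 4.80 CPM under AA and 101 ± 2.34 CPM under PBS (SD, n = 3 each; log2 change -0.19, SE 0.0438, edgeR adjusted p = 0.000508), but on the length-scaled FPKM values it was higher under AA, with 55.5 ± 3.34 FPKM against 49.8 ± 2.69 FPKM (SD, n = 3 each). Its direction in deficient cells therefore depends on which deposited table is read, and 11.6% of its exon bases overlap TBCK. In intact cells AIMP1 changed by -0.21 on counts (edgeR adjusted p = 0.000168) and by -0.015 on log2(FPKM + 1), which did not pass (limma adjusted p = 0.818).

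**Figure D1:**
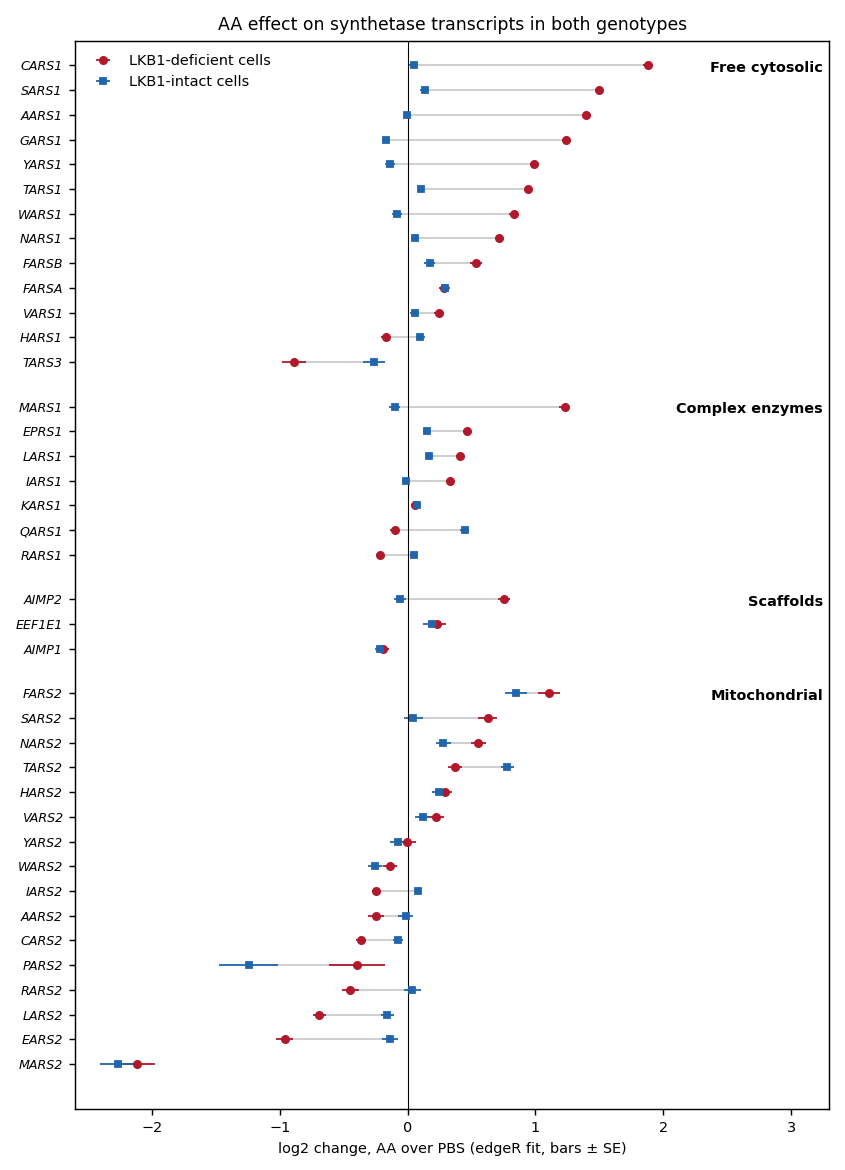
Log2 change under AA relative to PBS for 39 synthetases and scaffolds (x axis, edgeR fit, bars ± SE), ordered within each class by the change in LKB1-deficient cells (red circles), with LKB1-intact cells as blue squares. CARS1 stands at 1.88 in deficient and 0.047 in intact cells, whereas MARS2 stands at -2.12 in deficient and -2.26 in intact cells.

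The mitochondrial enzymes of deficient cells were split. MARS2, which makes the methionyl-tRNA that mitochondria also formylate for initiation (chromosome 2, 197705369 to 197708387, plus strand), had 3.60, 3.23 and 2.46 CPM under AA and 15.1, 13.8 and 11.6 CPM under PBS in deficient cells. It was 4.34-fold lower under AA with no overlap (log2 change -2.12, SE 0.143, edgeR adjusted p = 1.31e-11). EARS2, the glutamyl enzyme, had 29.1, 32.1 and 29.9 CPM under AA and 54.7, 64.3 and 58.2 CPM under PBS (log2 change -0.96, SE 0.0661, edgeR adjusted p = 1.77e-11). LARS2, the leucyl enzyme, had 45.9, 39.4 and 43.7 CPM under AA and 69.5, 70.6 and 68.6 CPM under PBS (log2 change -0.69, SE 0.0526, edgeR adjusted p = 9.56e-11). In EARS2 and LARS2 as well, each AA library was below each PBS library. The falls of RARS2, CARS2, AARS2 and IARS2 were log2 changes of -0.45, -0.36, -0.25 and -0.25, of which that of AARS2 changed sign when a trend on transcript length was subtracted, as follows.

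The largest mitochondrial rise was in FARS2, the phenylalanyl enzyme, with 23.6, 22.8 and 24.6 CPM under AA and 11.0, 11.0 and 10.9 CPM under PBS in deficient cells (log2 change 1.11, SE 0.0858, edgeR adjusted p = 1.29e-10). SARS2 and NARS2 rose by log2 changes of 0.63 and 0.55, and TARS2, HARS2 and VARS2 by 0.37, 0.29 and 0.22. Some of these counts are uncertain, since SARS2 shares 46.2% of its exon bases with its empty second identifier and 10.8% with MRPS12, HARS2 11.7% with HARS1, and VARS2 22.0% with GTF2H4. WARS2, the tryptophanyl enzyme, had 41.0, 44.5 and 44.3 CPM under AA and 46.2, 46.3 and 50.4 CPM under PBS in deficient cells (log2 change -0.14, SE 0.0546, edgeR adjusted p = 0.0248). This call was lost without deficient PBS library 3 (log2 change -0.10, edgeR adjusted p = 0.127) or deficient AA library 1 (-0.10, edgeR adjusted p = 0.13), and in DESeq2 (DESeq2 adjusted p = 0.0542). It was also lost under upper quartile scaling (-0.1005, edgeR adjusted p = 0.105) and scaling by library size only (-0.0831, edgeR adjusted p = 0.176). PARS2 and YARS2 did not pass, at log2 changes of -0.40 and -0.0042.

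Some of these sizes moved when a trend on transcript length was taken out. A trend of the log2 change on the length implied by the count and the FPKM value was fitted over all tested genes and subtracted, which gives values without a test. In deficient cells 2 of the 37 called members then changed sign and 13 moved by over 1.5 times with the same sign, against 11.3% and 40.3% of all called genes. The 2 were EEF1E1, at 0.23 before and -0.20 after, and AARS2, at -0.25 before and 0.039 after. Rises became smaller in AIMP2 (0.38 after) and FARSA (0.10), and larger in FARSB (0.97), EPRS1 (0.75), IARS1 (0.59) and VARS1 (0.44). Falls became smaller in LARS2 (-0.43), IARS2 (-0.087) and WARS2 (-0.065), and larger in CARS2 (-0.60), AIMP1 (-0.37), HARS1 (-0.31) and QARS1 (-0.29). The largest changes stayed near their values, CARS1 at 1.90, AARS1 at 1.55, SARS1 at 1.35, GARS1 at 1.19, MARS1 at 1.09 and MARS2 at -2.005. The cytosolic median was 0.69 and the mitochondrial median -0.065 after subtraction.

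**Figure D2:**
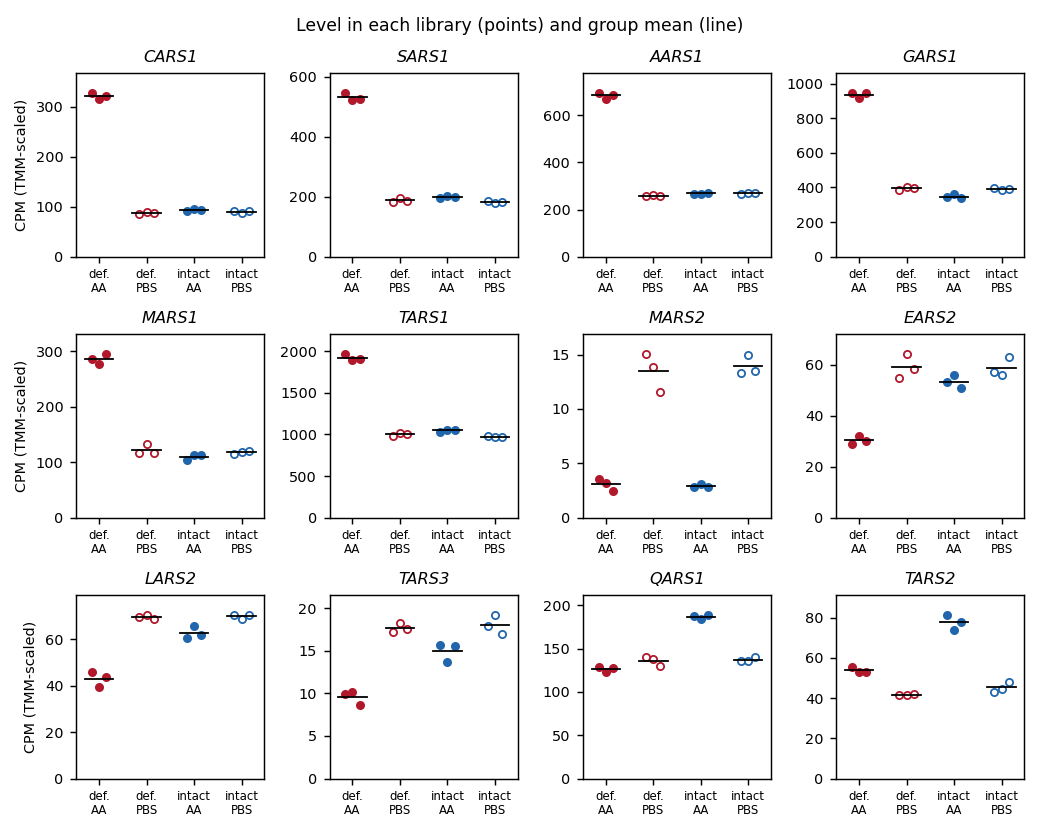
Level of 12 synthetases in each library (points, CPM, y axis from 0) by group, with the group mean as a line; red points are LKB1-deficient and blue points LKB1-intact cells, filled under AA and open under PBS. In the panels of CARS1, SARS1, AARS1, GARS1, MARS1 and TARS1 the deficient AA libraries stand apart from the other 3 groups, while MARS2 is low in the AA libraries of both genotypes.

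In LKB1-intact cells fewer of these genes passed the test under AA, and most changes were small. At an edgeR adjusted p under 0.05, 16 of the 41 rose and 8 fell, against 34.5% up and 35.2% down over all genes tested. The median was 0.050 over the 41 and 0.0069 over all genes. Of the 21 cytosolic enzymes 9 rose and 3 fell (median 0.060), and of the 17 mitochondrial enzymes 6 rose and 4 fell (median 0.037). Called log2 changes reached 1 in size in 2 members, both mitochondrial, against 10.1% of all genes in intact cells. In deficient cells 7 of the 41 reached it, against 14.5% of all genes. With the length trend subtracted, 2 of the 24 members called in intact cells changed sign, EEF1E1 (0.19 before, -0.15 after) and LARS2 (-0.16 before, 0.051 after), against 8.92% of all called genes. Another 8 moved by over 1.5 times, against 38.3%: SARS1 (0.037 after), HARS1 (0.013) and FARSA (0.17) became smaller, and FARSB (0.51), EPRS1 (0.38), LARS1 (0.31), IARS2 (0.21) and AIMP1 (-0.33) larger.

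The strongest rises in intact cells were mitochondrial. FARS2 had 20.9, 21.4 and 18.9 CPM under AA and 9.88, 12.1 and 11.9 CPM under PBS (log2 change 0.85, SE 0.0861, edgeR adjusted p = 1.67e-08). TARS2, the mitochondrial threonyl enzyme, had 55.4, 53.1 and 52.9 CPM under AA and 41.4, 41.6 and 42.0 CPM under PBS in deficient cells (log2 change 0.37, SE 0.0531, edgeR adjusted p = 1.92e-06). In intact cells it had 81.5, 73.9 and 78.0 CPM under AA and 43.2, 44.7 and 48.1 CPM under PBS (log2 change 0.78, SE 0.0506, edgeR adjusted p = 1.36e-11). AA and PBS libraries did not overlap for either gene. Next came QARS1, the glutaminyl enzyme of the complex, with 187, 184 and 189 CPM under AA and 136, 136 and 140.2 CPM under PBS (log2 change 0.45, SE 0.0354, edgeR adjusted p = 3.26e-10).

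MARS2 led the falls in intact cells too, with 2.78, 3.06 and 2.84 CPM under AA and 13.3, 14.98 and 13.5 CPM under PBS (log2 change -2.26, SE 0.145, edgeR adjusted p = 9.86e-12). PARS2, the mitochondrial prolyl enzyme and 1 of the least abundant genes of the set, had 2.49, 3.01 and 2.78 CPM under AA and 3.06, 3.46 and 4.36 CPM under PBS in deficient cells, which did not pass (log2 change -0.40, SE 0.217, edgeR adjusted p = 0.104). In intact cells PARS2 had 1.58, 1.50 and 1.86 CPM under AA and 5.03, 3.19 and 3.59 CPM under PBS (log2 change -1.24, SE 0.231, edgeR adjusted p = 6.25e-05). For both genes the intact AA libraries lay below the intact PBS libraries. WARS2 had 41.3, 42.5 and 39.5 CPM under AA and 48.6, 50.3 and 48.3 CPM under PBS (log2 change -0.26, SE 0.0546, edgeR adjusted p = 0.000279), and TARS3 15.6, 13.7 and 15.6 CPM under AA and 17.9, 19.2 and 17.0 CPM under PBS (log2 change -0.27, SE 0.0863, edgeR adjusted p = 0.00959). The TARS3 call in intact cells was lost without intact PBS library 2 (log2 change -0.22, edgeR adjusted p = 0.0564) or intact AA library 2 (-0.21, edgeR adjusted p = 0.0559).

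Set side by side, 12 of the 41 rose in both genotypes (29.3%, against 24.6% of all genes tested) and 5 fell in both (12.2%, against 27%). In deficient cells 10 rose without passing in intact cells (24.4%, against 9.69%) and 5 fell without passing in intact cells (12.2%, against 7.19%). KARS1 and YARS2 passed in neither (4.88%, against 13.4%). PARS2 fell in intact cells without passing in deficient cells (2.44%, against 5.46%). GARS1 and YARS1 rose in deficient and fell in intact cells (4.88%, against 2.71%). QARS1, HARS1 and IARS2 fell in deficient and rose in intact cells (7.32%, against 3.19%). QARS1 had 129, 123 and 128 CPM under AA and 140, 138 and 130 CPM under PBS in deficient cells (log2 change -0.10, SE 0.0364, edgeR adjusted p = 0.0149). That small fall was not called without deficient PBS library 1 (log2 change -0.083, edgeR adjusted p = 0.0664), deficient PBS library 2 (-0.090, edgeR adjusted p = 0.0553) or deficient AA library 2 (-0.083, edgeR adjusted p = 0.0702). Nor was it called under upper quartile scaling (-0.0625, edgeR adjusted p = 0.129) or scaling by library size only (-0.0453, edgeR adjusted p = 0.264). On log2(FPKM + 1) without a filter the QARS1 fall did not pass either (limma adjusted p = 0.0708).

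HARS1 had 87.8, 84.9 and 86.3 CPM under AA and 96.9, 98.6 and 96.3 CPM under PBS in deficient cells, and 104, 100.1 and 101 CPM under AA and 94.6, 92.4 and 97.7 CPM under PBS in intact cells. Its rise in intact cells (log2 change 0.10, SE 0.0373, edgeR adjusted p = 0.0214) was not called without intact PBS library 1 (log2 change 0.096, edgeR adjusted p = 0.0565), intact PBS library 2 (0.079, edgeR adjusted p = 0.108) or intact AA library 1 (0.083, edgeR adjusted p = 0.0906). IARS2, the mitochondrial isoleucyl enzyme, had 286, 275 and 269 CPM under AA and 327, 325 and 333 CPM under PBS in deficient cells, and 352, 358 and 350 CPM under AA and 329.7, 331 and 339 CPM under PBS in intact cells. The IARS2 rise in intact cells (log2 change 0.085, SE 0.0290, edgeR adjusted p = 0.0133) was not called without intact PBS library 1 (log2 change 0.076, edgeR adjusted p = 0.0547) or intact PBS library 2 (0.078, edgeR adjusted p = 0.0503). EEF1E1, whose rise in intact cells was 0.19 on the log2 scale, lost the call without intact PBS library 2 or 3 or intact AA library 1 or 3 (edgeR adjusted p = 0.106, 0.0816, 0.085 and 0.114).

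Whether the AA effect itself differed between the genotypes was tested as an interaction. The effect in deficient minus that in intact cells was above 0 at an edgeR adjusted p under 0.05 in 19 members and below 0 in 12, against 21.6% and 23% of all genes tested. Its median was 0.15 over the 41 and -0.013 over all genes. The cytosolic enzymes had 15 of 21 above and 4 below (median 0.34), and the mitochondrial ones 3 of 17 above and 8 below (median 0.043). CARS1 led with a difference of 1.83 (SE 0.0520, edgeR adjusted p = 1.04e-16), followed by GARS1 at 1.41 (SE 0.0415, edgeR adjusted p = 1.52e-16). AARS1, SARS1 and MARS1 lay at 1.40, 1.36 and 1.33.

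On the other side EARS2 stood lowest at -0.83 (SE 0.0907, edgeR adjusted p = 1.88e-07). It had 53.2, 55.9 and 51.1 CPM under AA and 57.1, 55.8 and 63.1 CPM under PBS in intact cells, where it did not pass (log2 change -0.14, SE 0.0619, edgeR adjusted p = 0.0559). TARS3 followed at -0.62 (SE 0.126, edgeR adjusted p = 0.000362), QARS1 at -0.55 (SE 0.0508, edgeR adjusted p = 1.45e-08) and LARS2 at -0.53 (SE 0.0728, edgeR adjusted p = 3.76e-06). LARS2 had 60.7, 65.6 and 61.7 CPM under AA and 70.7, 68.8 and 70.5 CPM under PBS in intact cells (log2 change -0.16, SE 0.0504, edgeR adjusted p = 0.00817), a call that upper quartile scaling ended (log2 change -0.096, edgeR adjusted p = 0.0907). The MARS2 difference of 0.15 did not pass (SE 0.211, edgeR adjusted p = 0.603), nor did that of FARS2 at 0.26 (SE 0.123, edgeR adjusted p = 0.0912). The PARS2 difference of 0.85 (SE 0.318, edgeR adjusted p = 0.0346) was not called after leaving out 1 of these 7 libraries: deficient AA library 2 (0.78, edgeR adjusted p = 0.0732), deficient AA library 3 (0.84, edgeR adjusted p = 0.0564), deficient PBS library 1 (0.74, edgeR adjusted p = 0.0819), deficient PBS library 2 (0.82, edgeR adjusted p = 0.0606), intact AA library 1 (0.82, edgeR adjusted p = 0.0662), intact AA library 2 (0.78, edgeR adjusted p = 0.0706) and intact PBS library 1 (0.64, edgeR adjusted p = 0.115). That of AARS2 (-0.23, edgeR adjusted p = 0.0282) was not called after leaving out 1 of these 5: deficient AA library 1 (-0.22, edgeR adjusted p = 0.0565), deficient PBS library 2 (-0.21, edgeR adjusted p = 0.0687), intact AA library 1 (-0.20, edgeR adjusted p = 0.0732), intact AA library 3 (-0.22, edgeR adjusted p = 0.0541) and intact PBS library 2 (-0.21, edgeR adjusted p = 0.0667). Nor was the AARS2 difference called in DESeq2 (DESeq2 adjusted p = 0.0659) or under scaling by library size only (edgeR adjusted p = 0.0884). It was also lost without the low-count filter (edgeR adjusted p = 0.064) and on log2(FPKM + 1) (limma adjusted p = 0.183). On log2(FPKM + 1) the PARS2 difference was not called either, with a filter (limma adjusted p = 0.0522) or without (0.0616).

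Summed over their members, the cytosolic enzymes held 8484 ± 141 CPM in deficient cells under AA and 4966 ± 76.4 CPM in deficient cells under PBS (SD, n = 3 each), a ratio of 1.71. In intact cells they held 5178 ± 42.5 CPM under AA and 4918 ± 26.6 CPM under PBS (SD, n = 3 each), a ratio of 1.05. The ratio was 2.003 in deficient and 1.03 in intact cells for the free enzymes, and 1.28 in deficient and 1.09 in intact cells for the enzymes of the complex. The mitochondrial enzymes held 936 ± 8.35 CPM under AA and 1033 ± 7.81 CPM under PBS in deficient cells, and 1105 ± 6.25 CPM under AA and 1037 ± 15.7 CPM under PBS in intact cells (SD, n = 3 each). Their sum was thus lower under AA in deficient cells (ratio 0.906) and higher under AA in intact cells (1.07). As CPM is not per length, these sums weight each gene by its abundance and its transcript length. TARS1, at 1923 CPM under AA and 1001 CPM under PBS in deficient cells, weighs most in the cytosolic and free sums. The sums carry no test.

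Pairing of a cytosolic enzyme with the mitochondrial enzyme for the same amino acid was done for 17 pairs. In deficient cells the cytosolic log2 change was the higher in 14 of 17, with a median difference of 0.86. In intact cells it was the higher in 9 of 17, with a median difference of 0.013. Methionine gave the widest pair, MARS1 at 1.23 and MARS2 at -2.12 in deficient cells, followed by cysteine, CARS1 at 1.88 and CARS2 at -0.36. The exceptions in deficient cells were phenylalanine, where FARS2 (1.11) exceeded both FARSA (0.28) and FARSB (0.53), and histidine, where HARS2 (0.29) exceeded HARS1 (-0.17). EPRS1 stands in 2 pairs, with EARS2 and PARS2, and FARS2 in 2, so the pairs are not independent.

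**Figure D3:**
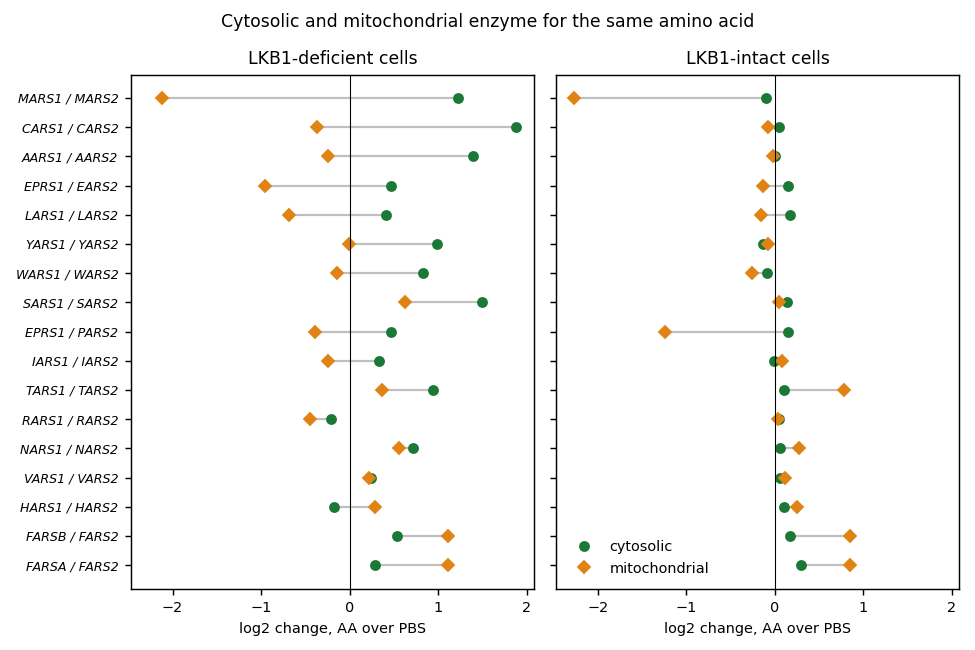
Log2 change under AA relative to PBS (x axis) of the cytosolic (green circles) and mitochondrial (orange diamonds) enzyme for each amino acid, in LKB1-deficient cells (left) and LKB1-intact cells (right), for 17 pairs, ordered by the gap in deficient cells. The green circle is to the right in 14 of 17 pairs of deficient cells and in 9 of 17 of intact cells.

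The genotypes were then compared under each treatment. Under PBS no member differed between deficient and intact cells at an edgeR adjusted p under 0.05, against 0.055% of all genes higher and 0.22% lower in deficient cells, and 3 of the 41 (7.32%) had an unadjusted p under 0.05, against 8.45% of all genes. DESeq2, limma-voom and limma on FPKM also called 0 members. Log2 differences ran from -0.13 in VARS2 to 0.11. Under AA 20 members were higher and 12 lower in deficient than in intact cells, against 28.7% and 30.3% of all genes.

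CARS1 had a log2 difference of 1.78 between deficient and intact cells under AA (SE 0.0350, edgeR adjusted p = 4.44e-20), GARS1 1.43, SARS1 1.41 and MARS1 1.38. MARS1 had 104, 113 and 113 CPM in intact cells under AA, all below the deficient AA libraries. The lowest were EARS2 at -0.82 (SE 0.0660, edgeR adjusted p = 6.83e-10), TARS3 at -0.65, QARS1 at -0.56 and LARS2 at -0.54. The small FARS2 difference (0.22, edgeR adjusted p = 0.0215) was not called without intact AA library 3 (edgeR adjusted p = 0.114) or deficient AA library 3 (0.0789), and that of VARS1 (0.11, edgeR adjusted p = 0.0108) not without deficient AA library 3 (0.0581). This comparison shares the AA libraries with the AA effects above and is not separate evidence.

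Levels of different genes were compared only per length, in FPKM. TARS1 was the most abundant, with 745 ± 14.0 FPKM in deficient cells under AA, 372 ± 3.71 in deficient cells under PBS, 389 ± 5.19 in intact cells under AA and 362 ± 0.765 in intact cells under PBS (SD, n = 3 each). GARS1 followed with 429 ± 6.33 FPKM in deficient cells under AA, 172 ± 2.73 in deficient cells under PBS, 152 ± 5.36 in intact cells under AA and 169.8 ± 3.49 in intact cells under PBS. MARS2 and PARS2 lay at the low end. MARS2 had 1.05 ± 0.194 FPKM in deficient cells under AA, 4.41 ± 0.599 in deficient cells under PBS, 0.947 ± 0.0493 in intact cells under AA and 4.54 ± 0.297 in intact cells under PBS. PARS2 had 1.21 ± 0.116 FPKM in deficient cells under AA, 1.52 ± 0.275 in deficient cells under PBS, 0.693 ± 0.0773 in intact cells under AA and 1.65 ± 0.409 in intact cells under PBS. All means are over 3 libraries with their SD.

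**Figure D4:**
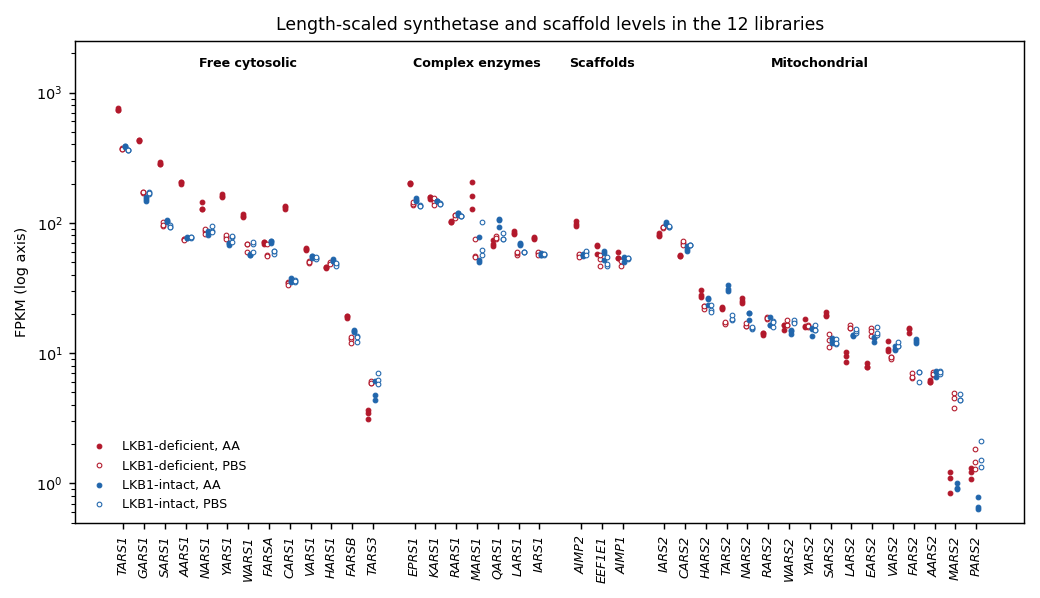
FPKM (log axis) of 39 synthetases and scaffolds in each of the 12 libraries, by class and ordered by mean level, in red for LKB1-deficient and blue for LKB1-intact cells, filled under AA and open under PBS. TARS1 is highest, MARS2 and PARS2 are lowest, and MARS1 spreads widely within groups.

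The count divided by the FPKM of a gene, at a library's depth, gives the transcript length that the estimator implied, and it moved for some members. MARS1 averaged 166 ± 40.1 FPKM in deficient cells under AA and 62.0 ± 11.5 FPKM under PBS (SD, n = 3 each), a spread not seen in its counts. Its implied length ran from 1371 to 2304 bases in deficient AA libraries and from 1729 to 2115 in deficient PBS libraries. For AIMP1 the implied length was 1637 ± 11.2 bases under AA and 2000.2 ± 75.4 under PBS in deficient cells, and 1684 ± 45.4 under AA and 1928 ± 29.4 under PBS in intact cells (SD, n = 3 each). The AIMP1 groups did not overlap in either genotype, and its counts and FPKM values differ in part by this length. They also differ in scale, since the FPKM values were not TMM-scaled. In deficient cells FPKM summed to 544596 to 555234 per library under AA and 500366 to 514614 under PBS. Mean implied length changed by over 5% under AA in 8 of the 41 in deficient and 7 of the 41 in intact cells, against 31.9% and 28% of all genes with a value.

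Genes around the charging step were described from lists made for the pathway with earlier results known. Of 12 charging helpers outside the rule, 9 rose and 1 fell in deficient cells (median 0.46), and 1 rose and 5 fell in intact cells (median -0.070). Over all genes the shares were 37% up and 37.4% down in deficient cells and 34.5% up and 35.2% down in intact cells, so the 41.7% of helpers that fell in intact cells lie near the background. XPOT, the exportin that carries tRNA out of the nucleus, had 568, 549.5 and 560.1 CPM under AA and 329.6, 324 and 329.8 CPM under PBS in deficient cells, and 296, 298 and 289 CPM under AA and 326, 320.3 and 322 CPM under PBS in intact cells. Its AA effect was 0.90 higher in deficient cells on the log2 scale (SE 0.0382, edgeR adjusted p = 6.07e-14). SEPSECS, which makes selenocysteinyl-tRNA, and AARSD1, which edits mischarged alanine tRNA, had differences of 1.02 (SE 0.132, edgeR adjusted p = 1.88e-06) and 0.58 (SE 0.0854, edgeR adjusted p = 9.21e-06).

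The 7 elongation factors take up charged tRNA or recharge the factor that does. In deficient cells 6 rose and 1 fell (median 0.40), and in intact cells all 7 rose (median 0.47), against 37% and 37.4% of all genes in deficient and 34.5% up in intact cells. EEF1A1, the main carrier of charged tRNA to the ribosome, had 7849, 7792 and 7826 CPM under AA and 6515, 6512 and 6492 CPM under PBS in deficient cells, and 9038, 9028 and 9225 CPM under AA and 6360.1, 6400.4 and 6481 CPM under PBS in intact cells. Its AA effect was lower in deficient cells by 0.24 on the log2 scale (SE 0.0228, edgeR adjusted p = 2.49e-08). EEF1A2, its close relative, and TSFM, the mitochondrial exchange factor, had differences of -0.32 and -0.34, so the difference ran below 0 in 5 of the 7 at an edgeR adjusted p under 0.05, against 23% of all genes, and above 0 in none.

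Among 7 sensors of uncharged tRNA or amino acids and genes linked to ATF4, 4 rose and 3 fell in deficient cells, against 37% and 37.4% of all genes, and 1 rose and 4 fell in intact cells, against 34.5% and 35.2%. ASNS, which makes asparagine, had 374, 358 and 368 CPM under AA and 52.7, 63.5 and 57.3 CPM under PBS in deficient cells, and 42.7, 51.8 and 47.3 CPM under AA and 57.3, 58.8 and 58.8 CPM under PBS in intact cells. Its AA effect differed by 2.97 (SE 0.0827, edgeR adjusted p = 9.81e-17), that of the leucine sensor SESN2 by 2.78 and that of DDIT3 by 2.07. ATF4 itself, named here after its values were seen, had AA effects on the log2 scale of 0.67 in deficient cells and 0.17 in intact cells, a difference of 0.50 (SE 0.0438, edgeR adjusted p = 6.38e-09). ATF5, a transcription factor induced through the same pathway and also named after its values were seen, had 6.43, 7.61 and 7.29 CPM under AA and 21.3, 23.1 and 22.9 CPM under PBS in deficient cells, and 8.94, 9.62 and 8.38 CPM under AA and 21.0, 22.8 and 21.6 CPM under PBS in intact cells. It fell under AA in both genotypes, with log2 changes of -1.66 in deficient cells (SE 0.0905, edgeR adjusted p = 3.5e-13) and -1.28 in intact cells (SE 0.0877, edgeR adjusted p = 3.02e-11), so the genes linked to ATF4 did not move one way. EIF2AK4, also named after its values were seen, fell by 0.52 in deficient cells and changed by 0.071, without passing, in intact cells (edgeR adjusted p = 0.214).

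Read beside the promoter element, the 7 cytosolic genes with a match had AA changes in deficient cells of 1.88 (CARS1), 1.40 (AARS1), 1.24 (GARS1), 1.23 (MARS1), 0.94 (TARS1), 0.72 (NARS1) and 0.33 (IARS1) on the log2 scale. All 7 rose, against 16 of all 21 cytosolic enzymes (76.2%) and 37% of all genes. YARS2, the mitochondrial gene with a match and the one whose motif lay farthest from the start, changed by -0.0042 and did not pass. Of the 9 cytosolic genes with a window and no match, 5 rose, 3 fell and 1 did not pass. The 5 were SARS1 (1.50), WARS1 (0.83), FARSB (0.53), EPRS1 (0.46) and FARSA (0.28). Among genes with no window, YARS1 (0.99), LARS1 (0.41), VARS1 (0.24) and VARS2 (0.22) rose, and TARS3 (-0.89) and AARS2 (-0.25) fell. These values are set side by side without a test.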

How the data were processed

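RNA sequencing libraries of A549 cells were grouped by genotype and treatment as titled and labelled, 3 libraries in each of 4 groups. The submitters' processing notes name RSEM, StringTie 1.3.1, HISAT2 2.1.0, Bowtie2 2.2.8 and fastp 0.18.0. What each did, the build and strand use: not given in the sources used here. Deposited by the authors were estimated counts per gene, of which 10.9 to 11.5% per library were not whole, and FPKM values, which summed to 500366 to 560678 per library. Such estimates share reads among overlapping or similar genes, which makes single members uncertain.

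Counts were rounded, filtered by group (minimum count 10) and TMM-scaled. A quasi-likelihood model with the 4 groups and no covariate was fitted to all 12 libraries (edgeR 4.0.16, R 4.3.3). The tests covered 5 comparisons, with Benjamini-Hochberg adjustment over 12718 genes and calls at an adjusted p under 0.05. Standard errors are the log2 change over the square root of F. The scripts were tested on simulated counts. Libraries of a group differed beyond sampling noise, so none was taken for a copy. The members and companion lists were chosen with earlier results of these data known. By rule, values per library are given for up to 4 called members of largest change per direction and comparison, for those called in opposite directions, and for TARS3, KARS1, GARS1 and EPRS1. For companion lists the rule takes the 3 smallest p of the interaction. Gene positions and exon overlaps come from GENCODE release 29 and promoter windows from RefSeq on GRCh38.p14, neither matched to the authors' build. Alternatives were DESeq2 1.42.0, limma 3.58.1 with voom or on log2 FPKM (pseudocounts 1 and 0.1), other scalings, filters and thresholds, a replicate block, a length trend removed (loess over all genes), and leaving out each library. Some members that the rule takes are not reported by name here.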

Additional observations from a re-analysis of the deposited data

Results flagged for a closer look

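The interaction test marked members whose AA effect differed between the genotypes (edgeR adjusted p under 0.05). Values are log2 effects of AA in LKB1-deficient minus those in LKB1-intact cells. Above 0 were CARS1 (1.83), GARS1 (1.41), AARS1 (1.40), SARS1 (1.36), MARS1 (1.33), YARS1 (1.13), WARS1 (0.92), PARS2 (0.85), TARS1 (0.84), AIMP2 (0.81), NARS1 (0.66), SARS2 (0.58), FARSB (0.36), IARS1 (0.34), EPRS1 (0.31), NARS2 (0.28), LARS1 (0.24) and VARS1 (0.19). Below 0 were AARS2 (-0.23), RARS1 (-0.27), HARS1 (-0.27), CARS2 (-0.29), IARS2 (-0.33), TARS2 (-0.41), RARS2 (-0.49), LARS2 (-0.53), QARS1 (-0.55), TARS3 (-0.62) and EARS2 (-0.83). The calls of PARS2 and AARS2 were each lost on leaving out single libraries and under some other settings, as given above. Groups of 3 libraries were too small to look for single outlying samples.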

How the results depend on the processing

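No count of called members moved by over 1.5 times under any alternative run. Across members, comparisons and settings with a test, 4945 calls kept direction and side of the threshold, 60 crossed it upward, 76 crossed it downward and 3 reversed. The reversed ones were AIMP1 in LKB1-deficient cells (log2 change -0.19 on counts) under limma on log2(FPKM + 1), at 0.15 (limma adjusted p = 0.0186), on log2(FPKM + 0.1), at 0.15 (limma adjusted p = 0.019), and on log2(FPKM + 1) without a filter, at 0.15 (limma adjusted p = 0.0291). With the trend on transcript length subtracted from each member, an alternative without a test added after the data were seen, 4 called values changed sign: EEF1E1 in deficient (-0.20) and in intact cells (-0.15), AARS2 in deficient cells (0.039) and LARS2 in intact cells (0.052). No called difference of effects changed sign, and AARS2 moved there by over 1.5 times, to -0.15, as did the VARS1 difference between genotypes under AA, to 0.18. Leaving out each library gave 24 to 25 rises and 12 to 13 falls in deficient cells, 13 to 17 and 8 to 10 in intact cells, 18 to 19 and 11 to 12 for the difference of effects, 18 to 20 and 12 between genotypes under AA, and 0 and 0 under PBS. With a replicate block the calls were 24 rises and 13 falls in deficient cells, and the block changed no call of a member. Same-numbered libraries correlated at -0.0939 to 0.0537 in their deviations, against -0.0529 to 0.0826 for others, so no shared effect of the number was visible. Whether same-numbered libraries were prepared together is not in the labels, and these correlations cannot decide it. Of all genes called, 60.3% were up on log2(FPKM + 1) and 48.4% on counts for the difference of effects, and 60.3% and 48.7% between genotypes under AA. Depth limits MARS2 and PARS2 most, the members with the largest standard errors.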
